A study of Mus musculus with 29 samples.

Results

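Hox genes encode homeodomain transcription factors. They lie in 4 clusters, HoxA to HoxD, and are numbered 1 to 13 by paralogue group from the 3′ to the 5′ end of a cluster. Low numbers are used towards the head of the embryo and high numbers towards the tail, and much of this order persists in the adult gut wall, where genes of the highest groups mark the hindgut. Hoxb13 marks the epithelium of the distal colon and rectum. Hox proteins bind DNA together with cofactors of the TALE class (Pbx, Meis and Pknox proteins).

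The genes described here are all Hox cluster genes with a probe set (a group of short DNA probes for 1 transcript) that carries a single gene symbol, with the brightest probe set taken where a gene had several. They number 37 among the 19938 genes with a single symbol on the array, namely 10 HoxA, 9 HoxB, 9 HoxC and 9 HoxD genes. By paralogue group, 7 were classed as anterior (groups 1 to 3), 14 as central (4 to 8) and 16 as posterior (9 to 13). Hoxb8 shares its probe set with Hoxb7 and is not among them.

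Colitis was induced in female C57BL6J mice with dextran sodium sulphate (DSS) in the drinking water, and by the methods at a higher percentage in later cycles than in the first. The 29 arrays, 1 per mouse, comprised 5 controls on normal water (A1, A2, A5, L1 and L2), 4 mice with acute colitis after 7 days of DSS without recovery (B2, B3, B4 and C3), 5 mice after 1 cycle of 7 days of DSS and 2 weeks of recovery (J1, J5, K1, K2 and K3), 5 after 2 cycles (D4, D5, E2, E3 and E4), 5 after 3 cycles (F1, F3, F5, G2 and G3) and 5 after 2 cycles with 3 additional weeks of recovery, called recovery here (M1, M3, M5, N2 and N3). The labels give an age of 6 weeks, which by the methods was the age when the study period began, and the mice were older and matched for age at sacrifice. All mice were of 1 strain, and the labels name no modified allele. RNA came from a piece of colon where infiltration was strongest, in the distal colon by the methods. The piece is bulk tissue, so fewer cells of a type and less RNA per cell cannot be told apart. The exact place of each piece is not given in the sources used here, so position along the colon and treatment cannot be told apart either.

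All levels are log2 values after RMA, a method that corrects background and brings all arrays to 1 distribution, so a difference of 1 is a 2-fold change. Groups were compared with limma over all 35511 probe sets. "Lower" and "higher" denote a Benjamini-Hochberg adjusted p under 0.05, and "called" denotes a fold above 2 in addition. A single unannotated probe set divided the arrays into 2 sets, with values of at most 8.14 in 14 arrays and at least 11.09 in 15. It was found by a search of the 12101 probe sets without a symbol, as the one with the widest gap relative to its range. Only gaps with a fair number of arrays on each side were searched, so very uneven splits could not be found. The lower set held all control and 1 cycle mice with B2, B3, D4 and D5, and the higher set held all others. What the sets reflect is not known. Intestinal epithelium was present in every mouse: the mean of 12 intestinal epithelial genes was 11.10 to 11.55 over all mice, and that of 12 skeletal muscle genes 5.68 to 5.98. The epithelial list was not made to tell colon from small intestine, and genes that differ along the gut are given below. Krt5, a basal keratin of squamous epithelium, was 10.19 to 12.15 in G3, M1, M3, N2 and N3 and at most 6.10 in the other 24 mice.

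Promoters of 4 HoxD genes are shown because Hoxd10, Hoxd12 and Hoxd13 were lower together, as described below, while Hoxd4 of the same cluster was not. Hoxd4 had a control mean of 5.40, under the lowest array median of 6.02, so a fall in it may not have been visible. The 250 bases before the start site come from RefSeq on build GRCm38.p6, written 5′ to 3′ along the strand of the gene. Capitals mark matches on either strand to TTTATG or TTTATT, which are among the sequences bound by caudal (Cdx) homeodomain proteins, or to TATAAA, the sequence of the TATA box. Matches can overlap. Hoxd11, with 2 windows, is not shown.
Hoxd13, chr2:74667975-74668224, + strand: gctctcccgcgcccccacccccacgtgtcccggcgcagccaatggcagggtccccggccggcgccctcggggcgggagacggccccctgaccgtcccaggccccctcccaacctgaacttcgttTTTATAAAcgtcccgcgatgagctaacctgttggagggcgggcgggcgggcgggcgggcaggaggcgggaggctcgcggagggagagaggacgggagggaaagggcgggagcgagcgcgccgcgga
Hoxd12, chr2:74674763-74675012, + strand: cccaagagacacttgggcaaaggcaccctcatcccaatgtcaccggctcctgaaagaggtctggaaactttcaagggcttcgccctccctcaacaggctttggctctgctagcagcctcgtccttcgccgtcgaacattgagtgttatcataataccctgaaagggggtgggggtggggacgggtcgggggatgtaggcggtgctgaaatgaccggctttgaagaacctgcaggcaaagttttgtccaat
Hoxd10, chr2:74691641-74691890, + strand: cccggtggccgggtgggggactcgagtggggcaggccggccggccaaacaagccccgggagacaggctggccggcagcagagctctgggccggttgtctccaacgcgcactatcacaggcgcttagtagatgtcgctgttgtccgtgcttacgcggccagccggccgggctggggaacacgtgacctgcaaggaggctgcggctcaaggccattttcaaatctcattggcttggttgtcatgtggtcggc
Hoxd4, chr2:74721728-74721977, + strand: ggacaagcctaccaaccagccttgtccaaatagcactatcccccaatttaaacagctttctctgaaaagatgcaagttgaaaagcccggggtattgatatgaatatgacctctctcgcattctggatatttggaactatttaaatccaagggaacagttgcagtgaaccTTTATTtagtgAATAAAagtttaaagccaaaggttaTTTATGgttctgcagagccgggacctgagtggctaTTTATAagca
The window of Hoxd4 held 4 matches and that of Hoxd13 held 2 that overlap, whereas those of Hoxd12 and Hoxd10 held 0. Windows were found for 21 of the 37 genes, 23 windows in all. TTTATG was in 4 of these and in 10.8% of all 32851 windows of the same length, TTTATT in 4 and 18.1%, and TATAAA in 3 and 12.4%. The Hox windows held a median of 13 CG pairs, against 6 over all windows. These are matches of letters and do not show binding.

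Over the 6 groups, 8 of the 37 genes varied in limma's moderated F test at an adjusted p under 0.05, against 25% of all probe sets. These were Hoxa2, Hoxa3, Hoxb13, Hoxc6, Hoxd3, Hoxd10, Hoxd11 and Hoxd12, with the smallest adjusted p for Hoxd12 (0.000279). The clusters differed in how far their genes ranged. HoxC levels lay between 4.47 and 5.48 in every mouse, under the lowest array median of 6.02. The widest range over the 29 mice was 0.80 in HoxC, 2.59 in HoxA (Hoxa13), 4.24 in HoxB (Hoxb13) and 3.82 in HoxD (Hoxd13). Mice of the same group also differed widely in these genes: the SD within groups was 0.88 for Hoxb13 and 0.96 for Hoxd13, against a median of 0.16 over all probe sets.

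**Figure D1:**
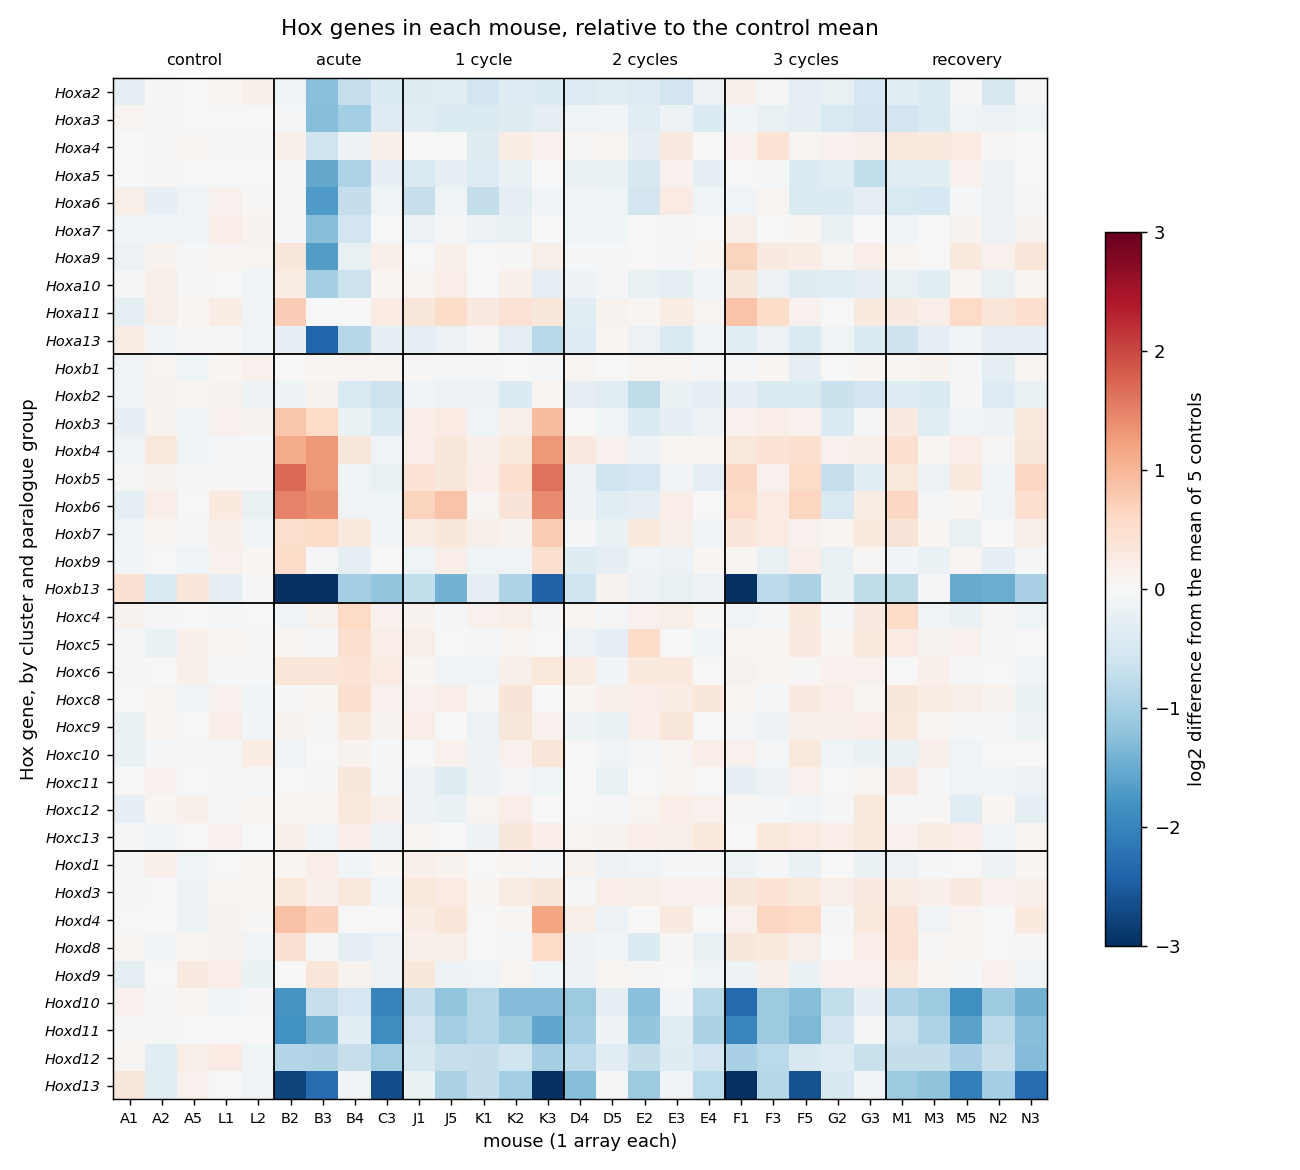
Log2 difference of each of the 37 Hox genes (rows, by cluster and paralogue group) from the mean of the 5 controls in each of the 29 mice (columns, by group). Colours reach their limit at 3 in either direction. Hoxb13 and Hoxd10 to Hoxd13 are blue in most DSS mice, Hoxb4 to Hoxb6 are red in B2, B3 and K3, most HoxA genes are blue in B3, and the HoxC rows stay pale.

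In acute colitis the 5′ end of HoxD, Hoxb13 and most HoxA genes were lower than in controls. Of the 37 genes, 11 were lower and 2 higher, against 11.6% and 11.4% of all probe sets. Hoxb13, Hoxd10, Hoxd11 and Hoxd13 were called lower, 4 of 37 against 1.4% of all probe sets. By class, 6 of 16 posterior, 3 of 14 central and 2 of 7 anterior genes were lower. The median log2 difference was -0.18 for posterior, 0.17 for central and 0.05 for anterior genes, beside 0.04 over all probe sets. With the 5 posterior HoxC genes set aside the posterior median was -0.88 over 11 genes. The class medians rested on single mice: the posterior one was -0.33 without B2 and -0.019 without B3, the central one 0.073 without B4, and the anterior one -0.016 without B2.

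Hoxb13 was 10.29, 9.38, 10.21, 9.55 and 9.77 in the controls (A1, A2, A5, L1 and L2). In acute colitis it was 6.05 in B2, 6.57 in B3, 8.82 in B4 and 8.69 in C3. All 4 acute mice lay below every control, and B2 and B3 were far below B4 and C3. The log2 difference was -2.31 ± 0.55 (SE, n = 4 and 5, limma adjusted p = 0.00282), a 4.94-fold lower level. Acute colitis was also lower in Hoxb13 than the mean of the 1, 2 and 3 cycles groups (difference -1.43 ± 0.46, limma adjusted p = 0.0405), a result that was lost in 11 of the 29 fits that each left out 1 mouse (B2, B3, J1, K1, K2, D5, E4, F3, F5, G2 or G3).

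After 1 cycle Hoxb13 was 9.09, 8.43, 9.54, 8.92 and 7.42 in J1, J5, K1, K2 and K3. After 2 cycles it was 9.25, 9.94, 9.67, 9.61 and 9.66 in D4, D5, E2, E3 and E4, and after 3 cycles 6.36, 9.05, 8.88, 9.63 and 9.08 in F1, F3, F5, G2 and G3. In recovery it was 9.08, 9.77, 8.32, 8.36 and 8.87 in M1, M3, M5, N2 and N3. Mice after 2 cycles overlapped the controls in 4 of 5 cases, whereas K3 and F1 stood well below the others of their groups. None of these 4 groups differed from controls by the test, with differences of -1.16 ± 0.52, -0.21 ± 0.52, -1.24 ± 0.52 and -0.96 ± 0.52 (limma adjusted p = 0.207, 0.884, 0.0969 and 0.237).

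Hoxd13, the most 5′ gene of HoxD, which patterns the hindgut and the digits, was 8.98, 8.31, 8.76, 8.65 and 8.51 in controls. In acute colitis it was 5.88, 6.36, 8.56 and 5.99 in B2, B3, B4 and C3. B4 lay among the controls and the other 3 acute mice lay far below them. The difference was -1.95 ± 0.61 (limma adjusted p = 0.0197), and it missed the threshold without B2 (adjusted p = 0.0622) or without C3 (adjusted p = 0.0715). Hoxd13 was 8.45, 7.69, 7.93, 7.63 and 5.57 after 1 cycle, 7.38, 8.61, 7.55, 8.56 and 7.84 after 2 cycles, 5.16, 7.80, 6.03, 8.17 and 8.56 after 3 cycles and 7.55, 7.44, 6.56, 7.62 and 6.36 in recovery. All 5 recovery mice lay below the lowest control, while at least 1 mouse of each other DSS group reached the controls. The differences of -1.19 ± 0.57, -0.66 ± 0.57, -1.50 ± 0.57 and -1.54 ± 0.57 did not pass the test (limma adjusted p = 0.25, 0.597, 0.0668 and 0.0756).

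Hoxd12, Hoxd11 and Hoxd10, which adjoin Hoxd13 and act with it in patterning the posterior body, varied less between mice of a group. Hoxd12 was 6.11, 5.70, 6.22, 6.31 and 5.93 in controls and 5.17, 5.16, 5.38 and 5.01 in acute colitis. It was 5.58, 5.36, 5.33, 5.46 and 5.07 after 1 cycle, 5.26, 5.70, 5.34, 5.69 and 5.48 after 2 cycles, 5.08, 5.24, 5.58, 5.67 and 5.39 after 3 cycles and 5.34, 5.34, 5.08, 5.37 and 4.75 in recovery. All 24 DSS mice lay below the lowest control, D5 by less than the last digit shown. Hoxd12 was the only one of the 37 genes lower than in controls in all 5 DSS groups, with differences of -0.88 ± 0.14 in acute colitis, -0.69 ± 0.14 after 1 cycle, -0.56 ± 0.14 after 2 cycles, -0.66 ± 0.14 after 3 cycles and -0.88 ± 0.14 in recovery (limma adjusted p = 5.85e-05, 0.00217, 0.0123, 0.00171 and 0.000217). Each fold was under 2, so Hoxd12 was not called. All DSS mice lay under the lowest array median of 6.02, and how far background limits these differences was not tested.

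Hoxd10 was 8.24, 8.03, 8.18, 8.02 and 8.03 in controls and 6.33, 7.40, 7.60 and 6.09 in acute colitis. It was 7.42, 6.91, 7.25, 6.79 and 6.79 after 1 cycle, 7.01, 7.84, 6.84, 8.01 and 7.27 after 2 cycles, 5.76, 7.02, 6.82, 7.35 and 7.86 after 3 cycles and 7.18, 7.02, 6.26, 7.02 and 6.69 in recovery. Here too all 24 DSS mice lay below the lowest control, as in 0.87% of all probe sets, while 1.33% had every DSS mouse above the highest control. Hoxd10 was called lower in acute colitis (-1.25 ± 0.33), after 1 cycle (-1.07 ± 0.31), after 3 cycles (-1.14 ± 0.31) and in recovery (-1.27 ± 0.31), with limma adjusted p = 0.00591, 0.0331, 0.0116 and 0.00847. After 2 cycles its difference was -0.71 ± 0.31 (limma adjusted p = 0.199). The 1 cycle result missed the threshold without A1, A5, L1, L2, J5, K2 or K3, with differences of -1.17 to -1.01 over the fits that left out 1 mouse.

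Hoxd11 was 7.80 to 7.90 in controls, 5.98 to 7.54 in acute colitis, 6.28 to 7.29 after 1 cycle, 6.69 to 7.69 after 2 cycles, 5.90 to 7.80 after 3 cycles and 6.24 to 7.20 in recovery. In 23 of 24 DSS mice Hoxd11 lay below the lowest control, with G3 as the exception, and the share of all probe sets with such a count was not computed. It was called lower in acute colitis (-1.35 ± 0.31), after 1 cycle (-1.03 ± 0.30) and in recovery (-1.05 ± 0.30), and was lower by just under 2-fold after 3 cycles (-0.99 ± 0.30), with limma adjusted p = 0.00212, 0.0329, 0.0211 and 0.0208. After 1 cycle it missed the threshold without the same 7 mice as Hoxd10 (-1.14 to -0.89), after 3 cycles without F1 or F5 (-1.23 to -0.75) and in recovery without M5 (-0.91).

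**Figure D2:**
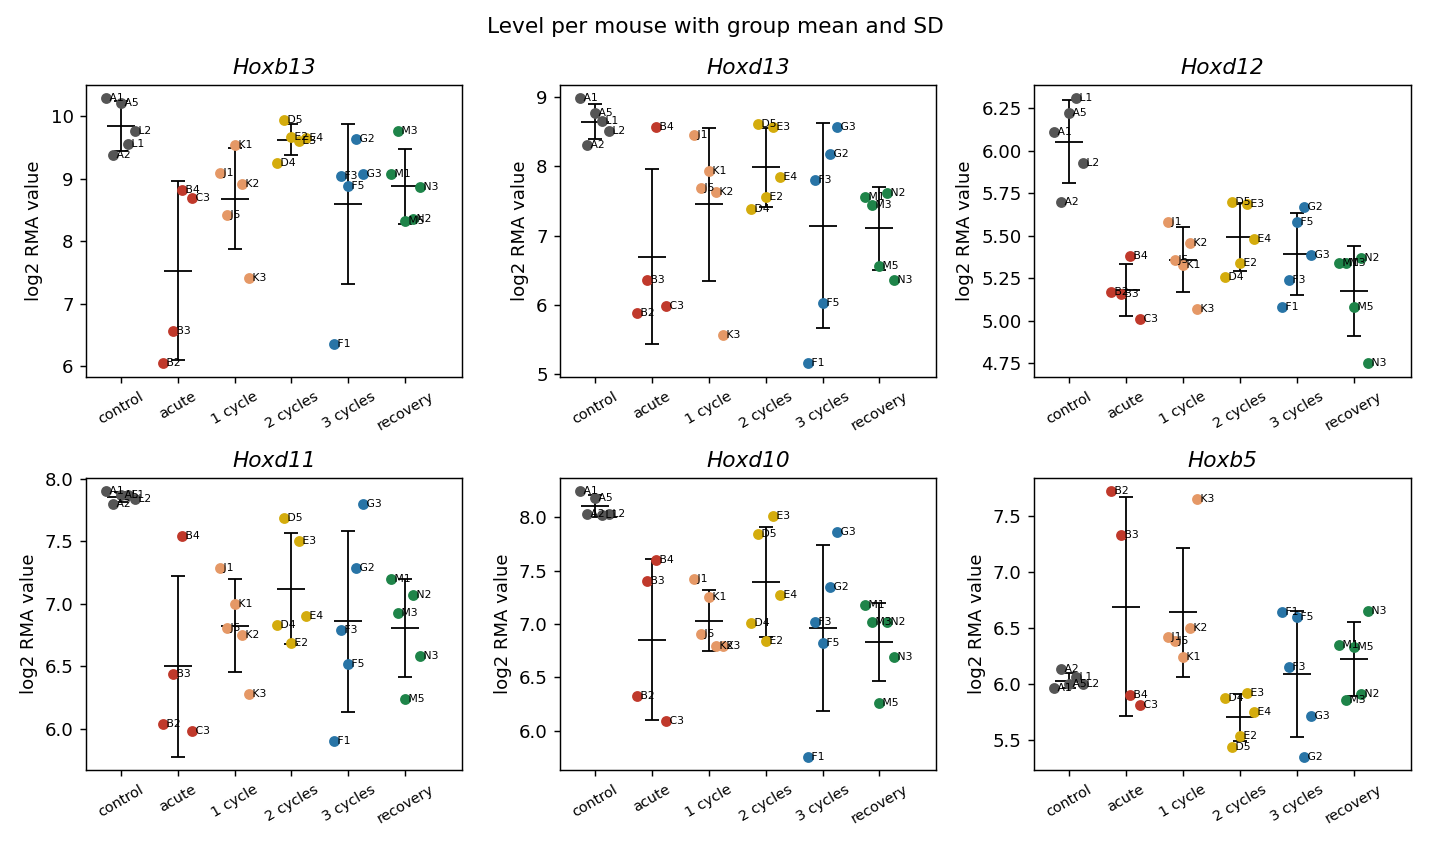
Log2 RMA level of Hoxb13, Hoxd13, Hoxd12, Hoxd11, Hoxd10 and Hoxb5 in each mouse (points, labelled) by group, with the group mean and SD (bars). Each panel has its own vertical axis, which does not start at 0. All DSS mice lie below the controls for Hoxd10 and Hoxd12, B2, B3, K3 and F1 are lowest for Hoxb13, and B2, B3 and K3 are highest for Hoxb5.

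Within HoxD the genes found lower were Hoxd10 to Hoxd13. Hoxd9 had differences of -0.05 to 0.08 from control over the 5 DSS groups, and Hoxd9, Hoxd8, Hoxd4 and Hoxd1 passed the test in none of them. Control means of Hoxd9, Hoxd8, Hoxd4 and Hoxd1 were 5.65, 5.39, 5.40 and 5.09, under the lowest array median of 6.02. How far background hides a fall in these 4 genes was not tested. Hoxd3 was higher after 1 cycle (0.24 ± 0.07) and after 3 cycles (0.30 ± 0.07), with limma adjusted p = 0.0465 and 0.007. It was 5.84 to 6.05 in controls, and 22 of 24 DSS mice lay above the highest of these. How many of all probe sets reach such a count was not computed. The 1 cycle result was lost in 20 of 29 fits that left out 1 mouse (0.20 to 0.28).

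**Figure D3:**
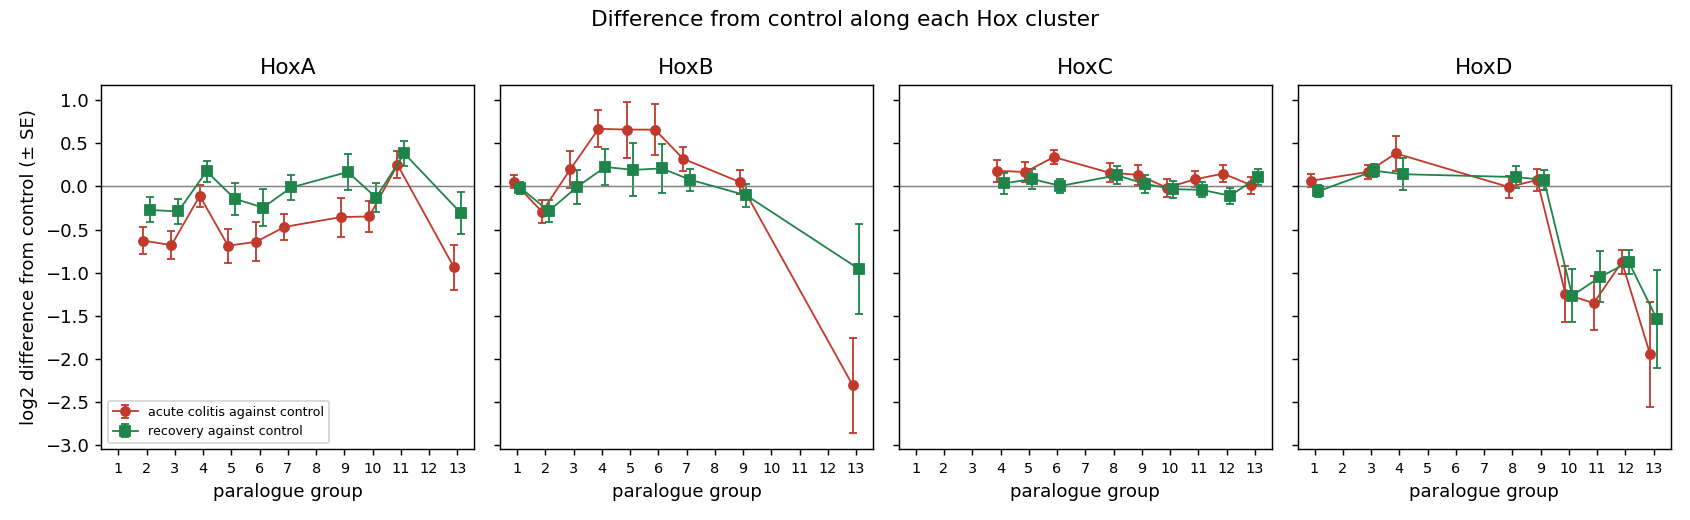
Log2 difference from control (vertical axis, ± SE) of each Hox gene by paralogue group (horizontal axis) in the 4 clusters, for acute colitis (circles) and recovery (squares). In HoxD both lines are near or above 0 up to Hoxd9 and at -0.88 or below from Hoxd10 on. In HoxB the acute line is above 0 for Hoxb3 to Hoxb9 and at -2.31 for Hoxb13, and HoxC stays near 0.

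HoxA differed from HoxD in which mice were low. Hoxa2, Hoxa3, Hoxa5, Hoxa6, Hoxa7 and Hoxa13 were lower in acute colitis, with differences from -0.94 for Hoxa13 to -0.47 for Hoxa7 (n = 4 and 5). Hoxa13, a partner of Hoxd13 in hindgut patterning, was 8.43 to 8.77 in controls and 8.31, 6.18, 7.70 and 8.28 in B2, B3, B4 and C3 (difference -0.94 ± 0.26, limma adjusted p = 0.00836). Hoxa3, an anterior gene, was 6.62 to 6.77 in controls and 6.64, 5.42, 5.65 and 6.30 in the same 4 mice (difference -0.68 ± 0.16, limma adjusted p = 0.00221), and 23 of 24 DSS mice lay below its lowest control. The share of all probe sets with such a count was not computed. Hoxa2, which patterns the hindbrain and branchial arches, was 6.11 to 6.52 and 6.24, 5.10, 5.66 and 5.95 (difference -0.63 ± 0.15, limma adjusted p = 0.00351).

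B3 held the lowest level of all 29 mice for 9 of the 10 HoxA genes. Its Hoxa9, named here after its values were seen, was 6.69 against 8.14 to 9.04 in the other 28 mice. B2 had the lowest Hoxb13 of all mice but no comparable loss in HoxA, with Hoxa13 at 8.31, Hoxa5 at 8.03 (controls 8.03 to 8.10) and Hoxa6 at 8.09 (controls 7.88 to 8.30). Without B3 the differences of Hoxa5, Hoxa6 and Hoxa7 were -0.40, -0.29 and -0.20 and no longer passed, while Hoxa2, Hoxa3 and Hoxa13 were still lower (-0.41, -0.49 and -0.46). Hoxa5, Hoxa6 and Hoxa7 also missed the threshold without B4 (-0.61, -0.62 and -0.44), Hoxa6 without A1, A5, L1 or L2, and Hoxa7 without L1 or L2. After 1, 2 and 3 cycles and in recovery no HoxA gene differed from controls by the test.

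Central HoxB genes stood apart in B2, B3 and K3. Hoxb4 was 5.46, 5.88, 5.45, 5.53 and 5.52 in controls and 6.68, 6.88, 5.91 and 5.47 in B2, B3, B4 and C3, a difference of 0.67 ± 0.22 (limma adjusted p = 0.0255), and was the only HoxB gene higher in acute colitis. This missed the threshold without A1, A5, B2 or B3, at 0.52 without B2 and 0.45 without B3. Hoxb5 and Hoxb6, named here after their values were seen, had differences of 0.66 ± 0.33 and 0.66 ± 0.30 that did not pass without the array set in the model (limma adjusted p = 0.153 and 0.116). Hoxb5 was 5.96 to 6.13 in controls, 7.72 in B2, 7.33 in B3 and 7.65 in K3, and at most 6.65 in the other 26 mice. Hoxb6 was 5.60 to 6.15 in controls, 7.34, 7.24 and 7.26 in B2, B3 and K3, and at most 6.72 elsewhere.

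The same 3 mice were the highest of all 29 for Hoxb3, Hoxb4 and Hoxd4. Hoxd4, also chosen after its values were seen, was 6.27, 6.09 and 6.59 in B2, B3 and K3 and 5.25 to 5.50 in controls. The probe set shared by Hoxb7 and Hoxb8 was 6.37, 6.44 and 6.68 in them and 5.29 to 5.62 in controls. B4 and C3 of the acute group did not share this, with Hoxb5 at 5.90 and 5.81, below all 5 controls.

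Averages over a class per mouse show the same split. Over the 4 central HoxB genes the mean difference from the control mean was 1.20 in B2, 1.14 in B3 and 1.27 in K3, and at most 0.47 elsewhere. Over the 5 posterior HoxD genes it was -1.44, -0.99, -0.30 and -1.55 in B2, B3, B4 and C3, -1.41 in K3 and -1.78 in F1, with -0.16 to 0.13 in controls. C3 and F1 thus had low posterior HoxD levels with central HoxB at -0.13 and 0.47. Over all 16 posterior genes the average was below that of every control in all 24 DSS mice, from -0.83 to -0.061, but the lowest control was close, at -0.050. The anterior average was -0.30 to 0.13 in DSS mice and -0.10 to 0.06 in controls, so it too fell below the controls in some DSS mice. In B4 it was lower than the posterior average (-0.30 against -0.20). How often other sets of genes separate in this way was not tested.

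In HoxC only Hoxc6, a gene of the trunk, passed the test in acute colitis, with a higher level (0.34 ± 0.08, limma adjusted p = 0.00389). It was 4.61 to 4.83 in controls and 5.03, 5.03, 5.08 and 4.92 in the acute mice, which all lay above the controls. All of these levels lay under the lowest array median of 6.02, and how far background limits the difference was not tested. Hoxc12 and Hoxc13, the most 5′ HoxC genes, passed no test and lay at 4.52 to 5.16 and 4.73 to 5.26 in all mice.

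After 1, 2 and 3 cycles and in recovery few Hox genes differed from controls, most of them posterior HoxD genes. After 1 cycle 3 were lower and 1 was higher, against 3.54% and 3.4% of all probe sets, and 2 were called lower, against 0.186%. After 2 cycles 1 was lower (Hoxd12) and 0 were higher, against 2.51% and 3.08%. Limma called 0 genes lower there, against 0.124%, with 5 at an unadjusted p under 0.05. After 3 cycles 4 were lower and 1 was higher, against 9.26% and 8.81%, and 1 was called lower, against 0.597%. In recovery 3 were lower and 0 were higher, against 6.61% and 6.05%, and 2 were called lower, against 0.563%. These comparisons share the 5 controls.

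Hoxb2, an anterior gene, was the only gene outside HoxD that was lower in one of these 4 groups. It was 6.44, 6.65, 6.60, 6.65 and 6.40 in controls and 6.31, 6.13, 6.13, 5.89 and 5.97 after 3 cycles, below every control in all 5 mice (difference -0.46 ± 0.12, limma adjusted p = 0.0104). The posterior class medians were 0.00 after 1 cycle, -0.11 after 2 cycles, -0.04 after 3 cycles and -0.11 in recovery, and -0.33, -0.21, -0.29 and -0.31 without HoxC. Over all probe sets the medians were -0.01, -0.01, 0.02 and 0.00.

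DSS groups were also compared with each other. Between recovery and 2 cycles limma found 0 Hox genes that differed, against 0.279% of all probe sets, with 3 at an unadjusted p under 0.05. The difference was -0.32 ± 0.14 for Hoxd12 and -0.88 ± 0.57 for Hoxd13 (limma adjusted p = 0.504 and 0.7). Between acute colitis and the mean of 1, 2 and 3 cycles 4 Hox genes differed, against 12.3% of all probe sets. Besides Hoxb13, Hoxa13 (-0.66 ± 0.22) and Hoxa7 (-0.41 ± 0.13) were lower and Hoxc6 (0.24 ± 0.07) was higher in acute colitis (limma adjusted p = 0.043, 0.0363 and 0.0266). Without B3 the differences of Hoxa13 and Hoxa7 were -0.18 and -0.14 and did not pass. Hoxa7 also failed without B4, Hoxa13 in 11 of the 29 fits and Hoxc6 without B2, B3 or B4. Hoxd10, Hoxd11, Hoxd12 and Hoxd13 did not pass this test.

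The calls after 3 cycles and in recovery were lost when the 2 sets of arrays entered the model. All mice of these groups lie in the higher set and all controls in the lower. The effect of the set could be estimated only in groups with mice in both sets. It thus rests on B2 and B3 against B4 and C3, and on D4 and D5 against E2, E3 and E4. With the set in the model the difference of Hoxd10 was -1.10 ± 0.46 after 3 cycles and -1.23 ± 0.46 in recovery, close to that without it but with a wider error (limma adjusted p = 0.281 and 0.264). The differences of Hoxb13 moved more, to -0.90 ± 0.58 after 2 cycles, -2.38 ± 0.71 after 3 cycles and -2.10 ± 0.71 in recovery, and again did not pass (limma adjusted p = 0.626, 0.112 and 0.204). In acute colitis Hoxb5 (1.02 ± 0.34) and Hoxb6 (0.95 ± 0.31), which had not passed without the set, were higher (limma adjusted p = 0.0374 and 0.0368). In recovery only Hoxd12 was still lower (-0.90 ± 0.20, limma adjusted p = 0.041), and after 3 cycles no Hox gene passed. After 2 cycles none passed either, with Hoxd12 at -0.58 ± 0.16 (limma adjusted p = 0.0742). The 1 cycle mice lie in the same set as the controls. Within the lower set, the acute mice B2 and B3 differed from the 5 controls by -3.53 ± 0.45 in Hoxb13, -2.53 ± 0.57 in Hoxd13, -1.61 ± 0.24 in Hoxd11 and -1.24 ± 0.27 in Hoxd10 (limma adjusted p = 0.00106, 0.0152, 0.00198 and 0.0129). In the same 2 mice Hoxb4 (1.22 ± 0.24), Hoxb5 (1.5 ± 0.29) and Hoxb6 (1.43 ± 0.27) were higher (limma adjusted p = 0.00818, 0.00679 and 0.0058). The levels of B2 and B3 were known when this fit was chosen, so its p-values cannot test acute colitis as a group. B4 and C3, left out of it, were at 5.90 and 5.81 in Hoxb5, below all controls. The higher set holds no control.

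Relations between genes were computed over the 29 mice after group means were removed, for 15 pairs, with two-sided permutation within groups and adjustment over the pairs. Hoxb13 and Hoxd13 varied together (Pearson r = 0.70, permutation p = 0.00067, adjusted p = 0.01). Spearman's rho was 0.62 (permutation p = 0.00081, adjusted p = 0.0121). Without B2 and F1, the mice farthest from the median of Hoxb13, r was 0.57 (permutation p = 0.0252). The 5 other pairs among Hoxa13, Hoxb13, Hoxc13 and Hoxd13 had r between 0.06 and 0.29, with adjusted permutation p of at least 0.753, and of at least 0.344 for rho.

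Hoxb13 and Myh11, the smooth muscle myosin heavy chain, had a negative relation within groups (r = -0.64, permutation p = 0.00968, adjusted p = 0.0726, and rho = -0.57, permutation p = 0.0143, adjusted p = 0.107), which missed the threshold after adjustment. Without B2 and F1 this r was -0.49 (permutation p = 0.0362). The other 8 pairs, of Hoxa13, Hoxb13 or Hoxd13 with Krt5, Scnn1b or Myh11, had adjusted permutation p of at least 0.482 for r and 0.306 for rho.

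**Figure D4:**
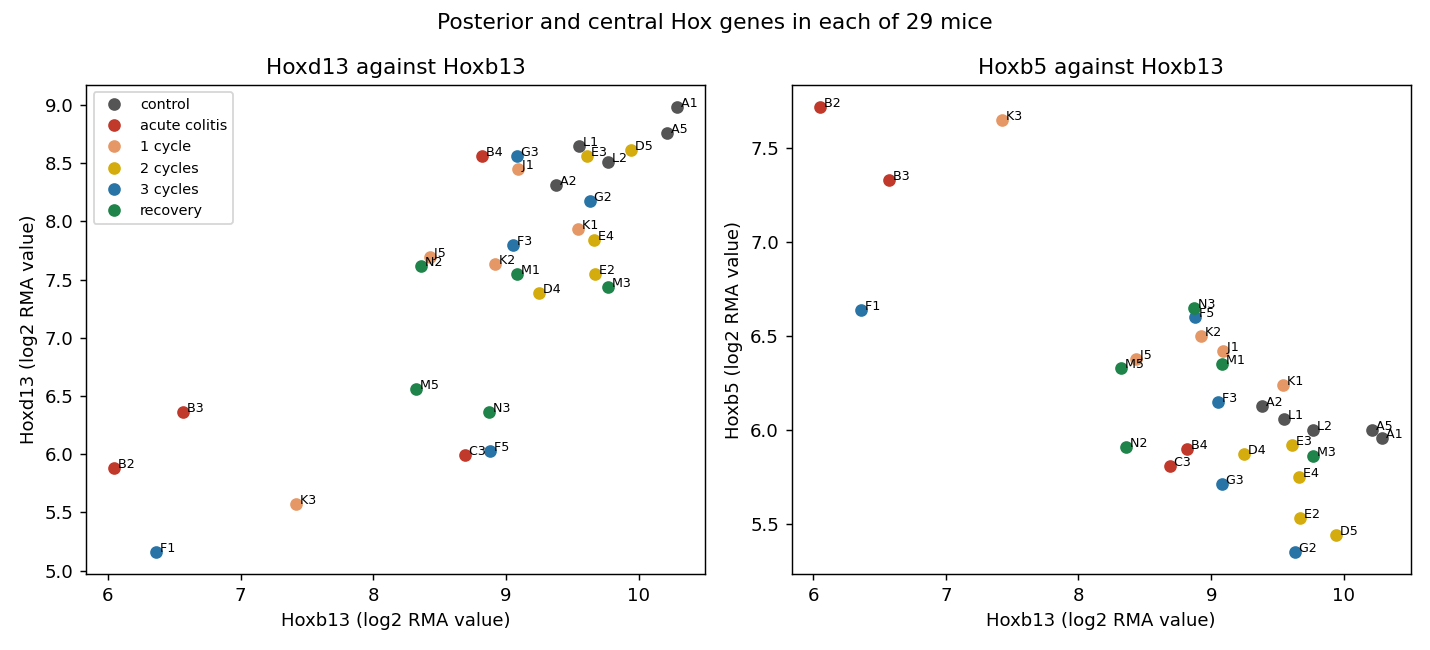
Log2 RMA level of Hoxd13 (left) and Hoxb5 (right) against that of Hoxb13 in each of the 29 mice, coloured by group and labelled. B2, F1, B3 and K3 are lowest in Hoxb13, and of these B2, B3 and K3 are the highest in Hoxb5 while F1 is at 6.64.

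Genes that differ along the gut were read in the same mice. Slc10a2, the bile acid transporter of the terminal ileum, was 4.87 to 5.20 in controls, 7.61 in B2, 7.90 in B3 and 8.25 in K3, and at most 6.32 in the other mice. It was higher in acute colitis (1.79 ± 0.50, limma adjusted p = 0.01), the only one of 10 small intestine genes that was. Of the others, Rbp2, a retinol binding protein, was lower (-1.12 ± 0.20, limma adjusted p = 0.000122) and Alpi, intestinal alkaline phosphatase, passed no test. Per mouse, Alpi was 5.45 to 7.29 in controls and highest in B2, K3, F1 and J5 (8.84, 8.63, 8.51 and 8.31), with B3 at 7.05. Fabp6, a defining gene of the ileum, was 4.84 to 5.51 in all mice. Sis, sucrase-isomaltase, was 5.92 in K3 and 3.81 to 4.76 in the others. The mean of the 10 genes was 5.13 to 5.34 in controls, 5.14 to 5.69 in acute colitis and 5.93 in K3. The part of position in the Hox differences was not tested.

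Slc37a2, a sugar phosphate carrier, was read with proximal colon genes. It was 8.74 to 10.46 in controls and 5.55 to 8.16 in DSS mice, lowest in B2, F1, K3 and C3 (5.55, 5.84, 5.93 and 6.15). It was lower in all 5 DSS groups, with a difference of -2.84 ± 0.48 in acute colitis (limma adjusted p = 8.99e-05). Of the other proximal genes, Ang4, an antimicrobial protein of Paneth and goblet cells, was lower in acute colitis (-1.77 ± 0.54, limma adjusted p = 0.018), and Itln1, a lectin, was higher after 3 cycles (0.33 ± 0.09, limma adjusted p = 0.0155). Cyp2c55, chosen after its values were seen, was 4.26 in B4, 7.63 in C3 and at least 8.78 in the other 27 mice, including B2 (11.34), B3 (11.60) and K3 (11.91).

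Of 4 distal colon genes, Fxyd4, a regulator of the sodium pump, was lower in all 5 DSS groups (-1.95 ± 0.25 in acute colitis, limma adjusted p = 3.11e-06). It was 7.08 to 8.79 in controls and 5.61 to 7.00 in the 24 DSS mice, with no overlap. Scnn1g, a subunit of the epithelial sodium channel, was lower in recovery (-0.96 ± 0.30, limma adjusted p = 0.0353), and Scnn1b, another subunit, passed no test. Hsd11b2, also of the distal list, passed no test and was 10.78 to 11.11 in controls and highest in B2 (11.47). Fxyd4 of the distal list and Slc37a2 of the proximal list were thus both lower in every DSS group, and no other gene of the 2 lists was.

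**Figure D5:**
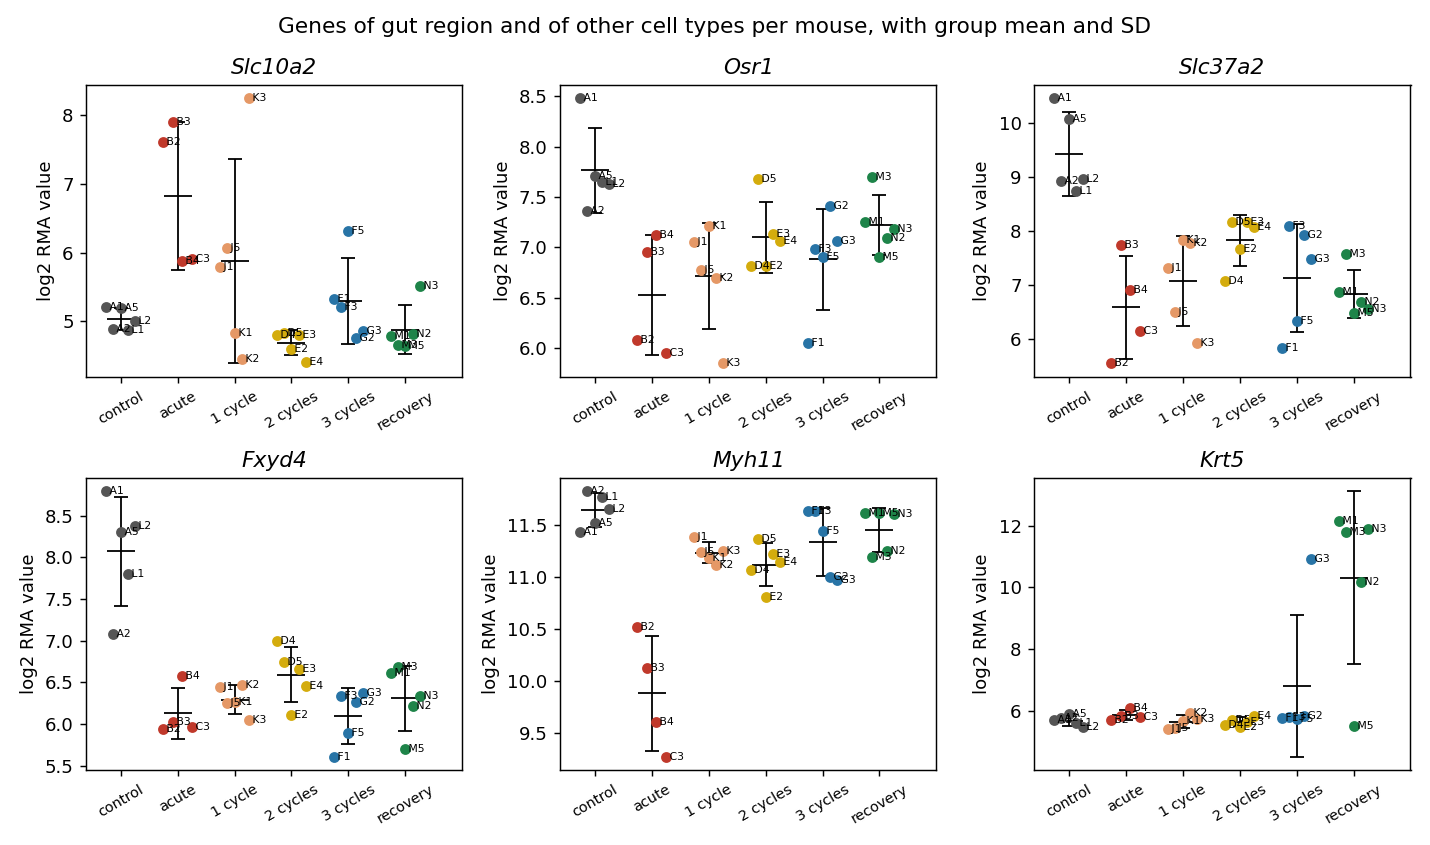
Log2 RMA level of Slc10a2, Osr1, Slc37a2, Fxyd4, Myh11 and Krt5 in each mouse (points, labelled) by group, with the group mean and SD (bars). Each panel has its own axis, which does not start at 0. Slc10a2 is highest in B2, B3 and K3, Fxyd4 and Slc37a2 are lower in all DSS mice than in controls, Myh11 is lowest in the 4 acute mice, and Krt5 is high in G3, M1, M3, N2 and N3.

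Marker genes of other cell types differed between groups as well. The counts of this and the following lists are to be read against the shares of all probe sets, 11.6% lower and 11.4% higher in acute colitis. After 1, 2 and 3 cycles and in recovery 3.54%, 2.51%, 9.26% and 6.61% were lower and 3.4%, 3.08%, 8.81% and 6.05% higher. All 12 smooth muscle genes were lower in acute colitis, 9 of them called, such as Tagln (-1.47 ± 0.13, limma adjusted p = 2.12e-08), an actin binding protein. Their mean was 9.84 to 10.24 in controls, 8.23 to 9.07 in acute colitis and 9.55 to 10.09 in the other groups. Of 11 leukocyte genes 10 were higher in acute colitis and 9 in each later group, with a mean of 6.13 to 6.64 in controls, 6.64 to 8.63 in acute colitis and 7.14 to 8.18 in the others. B2 was the acute mouse at 6.64, at the top of the control range, and had the lowest Hoxb13.

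Of 12 fibroblast genes 5 were lower in acute colitis, among them Dpt, a matrix protein (-1.27 ± 0.17, limma adjusted p = 4.55e-06), with a mean of 8.55 to 8.73 in controls, 8.28 to 8.67 in acute colitis and 8.45 to 8.97 elsewhere. Of 10 enteric neuron and glia genes 3 were lower in acute colitis, 3 after 1 cycle, 4 after 2 cycles, 1 after 3 cycles and 2 in recovery, with a mean of 6.37 to 6.51 in controls and 6.09 to 6.46 in DSS mice. Of 16 squamous genes 15 were higher in recovery, and their mean was 5.74 to 5.90 in controls and 5.81 to 9.65 in recovery. M5, the recovery mouse with the squamous mean within the control range (5.81), had Hoxd13 at 6.56 and Hoxd10 at 6.26, below all controls. The part of these other cell types in the Hox differences was not tested.

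Of the TALE cofactors, 4 of 8 were lower in acute colitis, with a list median of -0.27. Meis1 (-0.57 ± 0.12), Meis2 (-0.68 ± 0.18), Meis3 (-0.27 ± 0.07) and Pbx3 (-0.48 ± 0.10) were lower (limma adjusted p = 0.000758, 0.0074, 0.00521 and 0.00121). Meis3 was lower in all 5 DSS groups. Meis2 was 7.99 to 8.39 in controls, 7.61, 8.30, 7.35 and 6.87 in the acute mice and 8.10 to 8.65 in recovery, where it was higher than after 2 cycles (0.78 ± 0.17, limma adjusted p = 0.048).

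Of 18 gut region transcription factors 4 were lower and 1 was higher in acute colitis, with a list median of -0.02. Foxf2, a forkhead factor of the gut mesenchyme, was lower (-0.35 ± 0.11, limma adjusted p = 0.0211). Osr1, a zinc finger factor chosen after its values were seen, was 7.36 to 8.48 in controls and lowest in K3, C3, F1 and B2 (5.85, 5.95, 6.05 and 6.08), the mice lowest in Slc37a2 too. It was lower in acute colitis (-1.24 ± 0.29), after 1 cycle (-1.05 ± 0.27) and after 3 cycles (-0.89 ± 0.27), with limma adjusted p = 0.00216, 0.0176 and 0.0242. Sox2, a factor of the foregut and of squamous epithelium, was higher in recovery (0.83 ± 0.17, limma adjusted p = 0.00269), and its 5 highest mice were those with high Krt5. Cdx1 and Cdx2, caudal factors that act on Hox genes in the hindgut, and Isl1 passed no test against controls. Cdx2 was 8.03 to 9.50 in controls and 8.68 to 9.75 in recovery. Its 4 highest mice were B2 (10), F1 (9.99), M5 (9.75) and K3 (9.71). B3, also low in Hoxb13, was at 9.43, within the control range.

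Of 16 retinoic acid pathway genes, a pathway that acts upstream of Hox genes, 2 were higher in acute colitis and 5 in recovery, where 11.4% and 6.05% of all probe sets were higher, so the acute share was near that of all probe sets. Rdh10, a retinol dehydrogenase, was higher in all 5 DSS groups (0.97 ± 0.15 in acute colitis, 0.65 ± 0.14 in recovery, limma adjusted p = 2.3e-05 and 0.00341). Crabp2, a retinoic acid binding protein, and Rarg, a receptor, were higher in recovery (1.41 ± 0.31 and 0.34 ± 0.09, limma adjusted p = 0.00382 and 0.0151). The 5 mice highest in Crabp2 were again those with high Krt5.

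Of 15 chromatin regulators of Hox genes 4 were lower and 1 was higher in acute colitis, and 5 were lower after 3 cycles, none by 2-fold. Ezh1, a histone methyltransferase of the Polycomb complex PRC2, was lower in acute colitis (-0.50 ± 0.08, limma adjusted p = 6.67e-05). Eed, a subunit of PRC2, was higher there (0.29 ± 0.10, limma adjusted p = 0.0336), and Suz12, another subunit, was lower after 3 cycles (-0.44 ± 0.07, limma adjusted p = 0.000248).

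Genes next to the clusters did not all follow the Hox genes beside them. Of 13 measured, 2 were lower and 2 higher in acute colitis, against 11.6% and 11.4% of all probe sets. Ttll6, a tubulin ligase gene beyond Hoxb13, was 8.32 to 8.99 in controls and 5.99 to 7.99 in the 24 DSS mice, with no overlap. It was called lower in all 5 DSS groups (-1.95 ± 0.22 in acute colitis, limma adjusted p = 5.28e-07), also after 2 cycles (-1.06 ± 0.20, limma adjusted p = 0.00218), where Hoxb13 did not pass. Beyond Hoxd13, Evx2, a homeobox gene chosen for its place, passed no test, and Lnpk, an endoplasmic reticulum protein, was lower after 3 cycles (-0.46 ± 0.10) and in recovery (-0.42 ± 0.10, limma adjusted p = 0.00256 and 0.00795). Snx10, a sorting nexin beside the 3′ end of HoxA, was higher in acute colitis (0.90 ± 0.14, limma adjusted p = 3.02e-05).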

How the data were processed

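RNA of each mouse was hybridised to an Affymetrix Mouse Gene 1.0 ST array. The authors normalized the arrays by RMA (R 2.12.2 in the submitters' processing notes) and deposited log2 values, which were used as deposited. RMA sets levels relative to the whole array, and the array number limits the precision. Of the probe sets, 21789 carry 1 symbol, 1621 several and 12101 none. Groups came from the labels, and 1 more acute array was not analysed here.

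limma 3.58.1 in R 4.3.3 fitted 1 mean per group over all arrays, with adjustment over all probe sets, and was tested on simulated data. Relations used 100000 permutations within groups. Named Hox genes were those called or varying over the groups, those of groups 12 and 13, and the 2 of each class with the largest difference in acute colitis and in recovery. For other lists these were up to 3 genes of smallest F test p, and other names are marked or define a tissue. The members and lists were chosen with earlier results of these data known. Promoters were matched by symbol.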

Additional observations from a re-analysis of the deposited data

Results flagged for a closer look

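For 16 Hox genes in 6 groups, 96 pairs in all, 8 (8.33%) had 1 mouse far from the others of its group. Chance gives about 1 in 20. After 1 cycle K3 was at 5.57 in Hoxd13 (others 7.63 to 8.45) and 6.86 in Hoxb4 (others 5.73 to 5.89), and K1 at 5.78 in Hoxa2 (others 5.97 to 6.01). After 3 cycles F1 was at 6.36 in Hoxb13 (others 8.88 to 9.63). After 2 cycles E2 was at 5.79 in Hoxb2 (others 6.23 to 6.34) and D4 at 5.95 in Hoxd3 (others 6.13 to 6.20). Of the controls, A2 was at 5.88 in Hoxb4 (others 5.45 to 5.53) and A5 at 5.84 in Hoxd3 (others 6.01 to 6.05).

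The effect of DSS differed by limma between acute colitis and the mean of 1, 2 and 3 cycles in 4 Hox genes, by -1.43 in Hoxb13, -0.66 in Hoxa13, -0.41 in Hoxa7 and 0.24 in Hoxc6. All probe sets differed in 12.3% of cases, so 4 of 37 is no larger a share. Hoxb13 and Hoxa13 were each lost in 11 of 29 fits that left out 1 mouse.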

How the results depend on the processing

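Of the 30 differences of single Hox genes that passed the test, none reversed under the alternatives run. One alternative left out dim probe sets, those above the overall median in fewer than 4 arrays. Only 22 of the 30 could be read there, since Hoxd12, Hoxc6 and Hoxb4 were among the dim ones. Differences that had not passed could turn, such as Hoxb5 after 2 cycles from -0.33 to 0.10 and Hoxb3 from -0.20 to 0.16 with the set of arrays as covariate. Of 262 single-gene results under settings that left out no mouse of the groups compared, 232 kept their side of the threshold and 30 lost it. Of these 30, 12 were lost with only the groups compared, where mice of the other groups were left out. Another 9 were lost with the set of arrays as covariate and 7 with array weights. Counts of genes called lower or higher moved as follows. For acute colitis (4 called) the count was 13 with no fold threshold, 7 within the lower set of arrays, 2 without B2, B3 and K3 together, and 3 to 4 when 1 mouse was left out. For 1 cycle (2 called) it was 1 with array weights, 0 without B2, B3 and K3, 4 with no fold threshold and 0 to 2 with 1 mouse left out, fewer without A1, A5, L1, L2, J5, K2 or K3. For 2 cycles (0 called) it was 1 with no fold threshold. For 3 cycles (1 called) it was 3 with the label letter as a random block, 3 with array weights, 2 with each array centred, 0 with the set of arrays as covariate, 3 without B2, B3 and K3, 5 with no fold threshold and 0 (without F1) to 3 (without G2) with 1 mouse left out, also moving without A2, B4, K3 or G3. For recovery (2 called) it was 0 with the set as covariate and 1 to 3 with 1 mouse left out, moving by over 1.5 times without M5 or N3. For acute colitis against the mean of 1, 2 and 3 cycles (1 called) it was 0 with only the groups compared, 0 with array weights, 0 without B2, B3 and K3, 4 with no fold threshold and 0 to 1 with 1 mouse left out, lost without B2, B3, J1, K1, K2, D5, E4, F3, F5, G2 or G3. The number that varied among the 6 groups (8) was 4 with the set as covariate and 5 (without A1) to 14 (without C3) with 1 mouse left out, also moving by over 1.5 times without A2, A5, L1 or L2. The anterior median after 2 cycles was -0.0077 with the covariate. With class limits of 1 to 4, 5 to 9 and 10 to 13 the anterior median was 0.022 after 2 and 0.016 after 3 cycles, and the posterior median -0.61 in acute colitis, -0.25 after 1 cycle and -0.22 in recovery. Leaving out B2, B3 and K3 and using only the lower set were chosen after seeing the data, the 3 mice as those highest in Slc10a2. Causes were not tested. No paired analysis was possible because the labels give the groups no shared replicate numbers.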

Other observations

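Hottip, a long noncoding RNA beside Hoxa13, is outside the 37 genes and was chosen after its values were seen. It was 7.55 to 8.03 in controls and 5.75, 5.18, 6.33 and 7.13 in B2, B3, B4 and C3, with a difference of -1.68 ± 0.26 in acute colitis, -0.93 ± 0.24 after 1 cycle and -0.72 ± 0.24 after 3 cycles (limma adjusted p = 2.75e-05, 0.0184 and 0.0396). It lay below every control in all 4 acute mice, B2 included, and K3 was at 6.18.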
